A study of Mus musculus with 8 samples.

Results

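The 10 genes described here encode enzymes that hydroxylate collagen chains in the endoplasmic reticulum (ER) and proteins that help those chains fold. They are the lysyl hydroxylases Plod1, Plod2 and Plod3, the prolyl 3-hydroxylases P3h1, P3h2 and P3h3, the prolyl 4-hydroxylase alpha subunits P4ha1 and P4ha2, the cartilage-associated protein Crtap and the collagen chaperone Serpinh1 (HSP47). They were picked by symbol, and all 10 were found among the 14457 genes of the deposited table. Bulk RNA of cortical bone from the femur shaft was sequenced 7 days after birth, in 4 CKO libraries, homozygous for the floxed allele (Slc26a2 fl/fl), and 4 control libraries, heterozygous for it (Slc26a2 fl/+). Both groups carried Col2.3kb-Cre, whose type I collagen promoter fragment is active in osteoblasts and osteocytes, so other cells of the shaft were not targeted and the controls also carried the recombinase and 1 floxed allele. The study asked what accompanies disturbed osteoblast maturation when SLC26A2, a sulfate transporter, is lacking. Replicates are numbered in the labels without a statement that they were different animals, and the spread behind every p-value is therefore that among libraries, which may be technical.

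Collagen chains are modified before they fold. Prolyl 4-hydroxylase, a tetramer of alpha subunits with protein disulfide isomerase, makes the hydroxyproline that stabilises the triple helix. Lysyl hydroxylases prepare the residues used for sugar attachment and for crosslinks, and prolyl 3-hydroxylase 1 acts on type I collagen in a complex with CRTAP and cyclophilin B. HSP47 binds the folded procollagen and leaves it after export from the ER. In people, loss of CRTAP, P3H1 or HSP47 causes recessive osteogenesis imperfecta, a brittle bone disease.

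The libraries differed in more than genotype. Slc26a2 had 0.706 to 2.93 FPKM in CKO and 4.37 to 7.49 FPKM in control with no overlap (limma log2 fold change -1.34, SE 0.30, adjusted p = 0.0412), a call that was lost without CKO replicate 1, 2 or 3 or control replicate 2, 3 or 4, since those 6 fits called 0 genes. FPKM scales fragments to transcript length and to the fragments mapped in a library. FPKM summed to 431612 to 598419 in CKO libraries and to 352283 to 379669 in control libraries. All 10 osteoblast markers were in the table, with a summed level of 8962 to 28051 FPKM in CKO and 24755 to 30709 FPKM in control. In CKO replicate 4 the table gives 0 for 155 genes, while CKO replicates 1 to 3 have 9 to 31 such genes and the controls 5 to 26. Y-linked genes were at 0 in CKO replicates 1 to 3 and control replicate 1 and were detected in CKO replicate 4, at a summed 17.5 FPKM, and in control replicates 2 to 4, at 37.4 to 42.2 FPKM. Summed markers of neutrophils (6114 to 27482 FPKM in CKO, 790 to 3918 FPKM in control) and erythroid cells (17987 to 70792 FPKM in CKO, 3842 to 13039 FPKM in control) did not overlap between the groups. In bulk RNA of this kind, fewer cells of a type and less RNA per cell cannot be told apart.

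None of the 10 genes passed the test between CKO and control, although each had a lower mean in CKO. By limma on log2(FPKM + 1) with Benjamini-Hochberg adjustment over all 12748 genes tested, a set that held all 10, 0 of 10 passed at an adjusted p of 0.05, where 4.53% of all genes did (3.88% higher in CKO and 0.651% lower). Their log2 fold changes lay between -1.0 and -0.13, with a median of -0.49, against a median of 0.01 over all genes tested. A log2 fold change below 0 was seen in 10 of 10, and in 48.9% of all genes tested. At an unadjusted p under 0.05 there were 3 of 10 (Plod1, Plod2 and P3h2, all lower in CKO), against 25.3% of all genes, or 9.45% for lower ones alone. In the authors' deposited table the same 3 had a p-value under 0.05, as had 28.2% of the genes in that table (12% with a log2 fold change below 0), and its log2 fold changes for the 10 lay between -0.80 and -0.08. After Benjamini-Hochberg adjustment of those deposited p-values, 0 of 10 were under 0.05, against 14% of all genes.

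**Figure D1:**
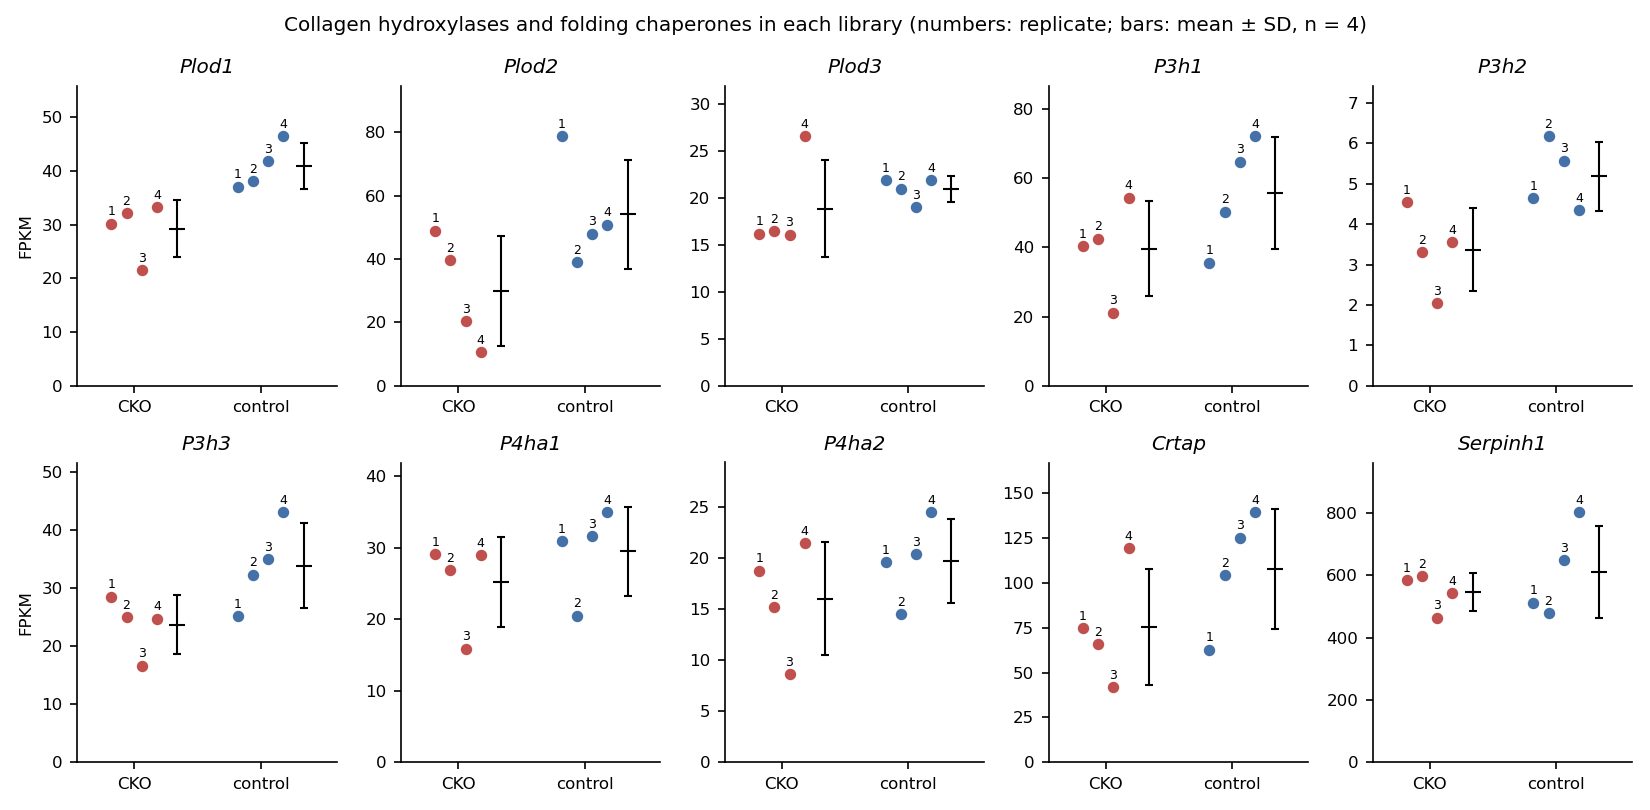
FPKM of each gene (vertical axis, linear from 0) in the 4 CKO libraries (red, left) and the 4 control libraries (blue, right), with the replicate number over each point and the mean ± SD beside each group. CKO replicate 3 is the lowest of all 8 libraries for 9 of the 10 genes, and only Plod1 shows no overlap between the groups.

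Among the lysyl hydroxylases, the CKO and control values of Plod1 did not overlap, while those of Plod2 and Plod3 did. Plod1 (ENSMUSG00000019055, GRCm38 chromosome 4, 147909753 to 147936767, minus strand) hydroxylates lysines of the collagen helix. Plod1 had 30.2, 32.2, 21.5 and 33.2 FPKM in CKO replicates 1 to 4, against 37.1, 38.1, 41.8 and 46.5 FPKM in control replicates 1 to 4. Every CKO library was below every control library, as in 6% of all genes tested (18.7% had no overlap in either direction). The means were 29.3 ± 5.32 FPKM in CKO and 40.9 ± 4.29 FPKM in control (SD, n = 4 each; two-sided exact permutation test over 70 assignments, p = 0.0286, the lowest possible). Any gene without overlap gets that permutation p-value. The permutation test was run on all 10 genes, without adjustment, and gave p = 0.0571 to 0.543 for the others. For Plod1 limma gave a log2 fold change of -0.48 (SE 0.20, 95% interval -0.92 to -0.04, adjusted p = 0.167).

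Plod2 (ENSMUSG00000032374, chromosome 9, 92542223 to 92608428, plus strand) hydroxylates lysines of the telopeptides, the ends outside the helix through which bone collagen is crosslinked. Plod2 had 48.9, 39.7, 20.5 and 10.7 FPKM in CKO replicates 1 to 4, against 78.8, 39.0, 48.0 and 50.8 FPKM in control replicates 1 to 4. CKO replicates 3 and 4 lay below every control library, and CKO replicates 1 and 2 lay within the control range. With the highest library 7.36 times the lowest, it varied more than any other of the 10. Its limma log2 fold change of -1.0 was the farthest from 0 of the 10 with all libraries as deposited, with a 95% interval of -1.94 to -0.06 (SE 0.42, adjusted p = 0.175). Without CKO replicate 4, the library with the most genes at 0, it was -0.60 (limma adjusted p = 0.209). With array weights it was -0.10 (limma adjusted p = 0.671). Those weights were 0.0896 for CKO replicate 4, 5.84 for CKO replicate 1, 5.02 for control replicate 3 and at most 1.57 for the rest. The value of -0.10 thus rests mostly on CKO replicate 1 (48.9 FPKM) and control replicate 3 (48.0 FPKM).

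Plod3 (ENSMUSG00000004846, chromosome 5, 136987019 to 136996648, plus strand) encodes a lysyl hydroxylase that also attaches sugars to hydroxylysine. Plod3 had 16.2, 16.5, 16.1 and 26.6 FPKM in CKO replicates 1 to 4, against 21.9, 21, 19.0 and 21.9 FPKM in control replicates 1 to 4. CKO replicates 1 to 3 were below the controls and CKO replicate 4 was above all of them. Limma gave a log2 fold change of -0.17 (SE 0.21, 95% interval -0.64 to 0.29, adjusted p = 0.634). It was -0.34 without CKO replicate 4 (adjusted p = 0.0930).

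The share of each enzyme in the summed FPKM of its family does not depend on a scaling by 1 factor per library. Plod2 made up 51.3%, 44.9%, 35.2% and 15.2% of the lysyl hydroxylase FPKM in CKO replicates 1 to 4, against 57.2%, 39.8%, 44.1% and 42.6% in control replicates 1 to 4. Control replicate 1 and CKO replicate 4 were the extremes, and the groups overlapped. Plod3 made up 17.0% to 37.8% in CKO and 15.9% to 21.4% in control, with CKO replicates 3 and 4 above the controls.

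Crtap and P3h1, which share a complex with cyclophilin B, followed each other closely from library to library. Ppib, which encodes cyclophilin B, was not low in CKO replicate 3, at 401 FPKM against 206 to 283 FPKM in control. The alternative subunits P4ha1 and P4ha2 kept about as steady a ratio, given below. Crtap (ENSMUSG00000032431, chromosome 9, 114375134 to 114390675, minus strand) carries no hydroxylase activity of its own. Crtap had 74.8, 65.7, 41.7 and 119 FPKM in CKO replicates 1 to 4, against 62.7, 104, 125 and 139 FPKM in control replicates 1 to 4. The groups overlapped, since control replicate 1 was below 3 of the CKO libraries. Limma gave a log2 fold change of -0.55 (SE 0.34, 95% interval -1.31 to 0.22, adjusted p = 0.352).

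P3h1 (ENSMUSG00000028641, chromosome 4, 119232915 to 119248975, plus strand) is the enzyme of that complex. P3h1 had 40.4, 42.5, 21.2 and 54.4 FPKM in CKO replicates 1 to 4, against 35.6, 50.3, 64.8 and 72.2 FPKM in control replicates 1 to 4. Control replicate 1 was again low, and only CKO replicate 3 lay below it. Limma gave a log2 fold change of -0.51 (SE 0.32, 95% interval -1.21 to 0.19, adjusted p = 0.345). Without CKO replicate 3 it was -0.24 for P3h1 and -0.30 for Crtap (adjusted p = 0.640 and 0.631), and without CKO replicate 4 it was -0.68 and -0.80 (adjusted p = 0.143 and 0.0972).

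P3h3 (ENSMUSG00000023191, chromosome 6, 124841089 to 124857752, minus strand) encodes a relative of P3H1 that acts in lysyl hydroxylation of collagen in mice. P3h3 had 28.6, 25.0, 16.7 and 24.8 FPKM in CKO replicates 1 to 4, against 25.2, 32.4, 35.1 and 43.1 FPKM in control replicates 1 to 4. All CKO libraries but replicate 1 were below the controls, by little in replicates 2 and 4. Limma gave -0.50 on the log2 scale (SE 0.23, 95% interval -1.01 to 0.02, adjusted p = 0.212). P3h2 (ENSMUSG00000038168, chromosome 16, 25959288 to 26105784, minus strand), the form known for type IV collagen, was the lowest of the 10. P3h2 had 4.54, 3.30, 2.05 and 3.56 FPKM in CKO replicates 1 to 4, against 4.64, 6.18, 5.57 and 4.34 FPKM in control replicates 1 to 4. Only CKO replicate 1 lay within the control range, and limma gave a log2 fold change of -0.52 (SE 0.23, 95% interval -1.03 to -0.02, adjusted p = 0.184). P3h1 made up 53.1% to 65.8% of the prolyl 3-hydroxylase FPKM in CKO and 54.5% to 61.4% in control, so its share overlapped between the groups.

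The prolyl 4-hydroxylase subunits overlapped between the groups. P4ha1 (ENSMUSG00000019916, chromosome 10, 59323296 to 59373304, plus strand) had 29.1, 26.8, 15.9 and 28.9 FPKM in CKO replicates 1 to 4, against 30.9, 20.5, 31.6 and 34.9 FPKM in control replicates 1 to 4. CKO replicate 3 and control replicate 2 were the low libraries. Limma gave a log2 fold change of -0.23 (SE 0.25, 95% interval -0.79 to 0.33, adjusted p = 0.598). P4ha2 (ENSMUSG00000018906, chromosome 11, 54100095 to 54131665, plus strand) had 18.8, 15.2, 8.67 and 21.5 FPKM in CKO replicates 1 to 4, against 19.6, 14.5, 20.4 and 24.5 FPKM in control replicates 1 to 4. Both subunits had the same lowest library, CKO replicate 3. For P4ha2 limma gave a log2 fold change of -0.33 (SE 0.28, 95% interval -0.96 to 0.30, adjusted p = 0.498). Without CKO replicate 3 the log2 fold changes were -0.03 for P4ha1 and -0.08 for P4ha2 (adjusted p = 0.940 and 0.869).

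Serpinh1 was the most abundant of the 10, and its groups overlapped. Serpinh1 (ENSMUSG00000070436, chromosome 7, 99345376 to 99353239, minus strand) had 585, 598, 464 and 543 FPKM in CKO replicates 1 to 4, against 513, 478, 649 and 802 FPKM in control replicates 1 to 4. CKO replicates 1, 2 and 4 lay between the 2 lower and the 2 higher controls, and CKO replicate 3 lay below all 4. The means were 547 ± 60.5 FPKM in CKO and 610 ± 147 FPKM in control (SD, n = 4 each), and limma gave a log2 fold change of -0.13 (SE 0.25, 95% interval -0.70 to 0.43, adjusted p = 0.779). Its highest library was 1.73 times its lowest, where Plod3 had 1.65 times and the others 2.16 to 7.36 times. Without control replicate 4 the log2 fold change was 0.01, and with quantile normalization it was -1.07 (limma adjusted p = 0.992 and 0.0607).

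The order of the levels was read from FPKM, which is per length. Serpinh1, at a mean of 579 FPKM over the 8 libraries, and Crtap, at 91.5 FPKM, came first, each above the next gene in 8 of 8 libraries. P3h1 (47.7 FPKM), Plod2 (42.1 FPKM) and Plod1 (35.1 FPKM) followed, with P3h1 above Plod2 in 6 of 8 libraries and Plod2 above Plod1 in 6 of 8. P3h3 (28.9 FPKM) and P4ha1 (27.3 FPKM) were not separated, with P3h3 higher in 4 of 8 libraries, and neither were Plod3 (19.9 FPKM) and P4ha2 (17.9 FPKM), with Plod3 higher in 5 of 8. P3h2 came last at 4.27 FPKM, below P4ha2 in 8 of 8 libraries. By mean FPKM, Serpinh1 was at or above 99.3% of the genes in the table and P3h2 at or above 37.7%.

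Within libraries, some of the 10 genes kept a steadier proportion than others. Pairs with genes outside the 10 were not compared. The ratio of FPKM was taken for all 45 pairs, and the SD of its log2 over the 8 libraries had a median of 0.38. The pair P3h1 and Crtap had the smallest SD, 0.15. Their ratio was 0.539, 0.648, 0.509 and 0.456 in CKO replicates 1 to 4, against 0.568, 0.484, 0.517 and 0.521 in control replicates 1 to 4. It spanned 0.456 to 0.648 in all libraries, while P3h1 itself varied 3.4-fold and Crtap 3.32-fold. Next came the alternative subunits P4ha1 and P4ha2, with an SD of 0.15 and a ratio of 1.34 to 1.83 in CKO and 1.41 to 1.58 in control. Plod1 and P3h3 were close behind, with an SD of 0.16 and a ratio of 1.06 to 1.34 in CKO and 1.08 to 1.47 in control. The 9 widest SDs all belonged to pairs with Plod2, at 0.76 to 1.09. Plod1 over Plod2 was 0.617, 0.811, 1.05 and 3.11 in CKO replicates 1 to 4, against 0.470, 0.976, 0.870 and 0.915 in control replicates 1 to 4. Of the 45 ratios, 1 separated the groups, P3h3 over Serpinh1, at 0.0360 to 0.0489 in CKO and 0.0490 to 0.0678 in control. These ratios were chosen after the values were seen and carry no test.

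**Figure D2:**
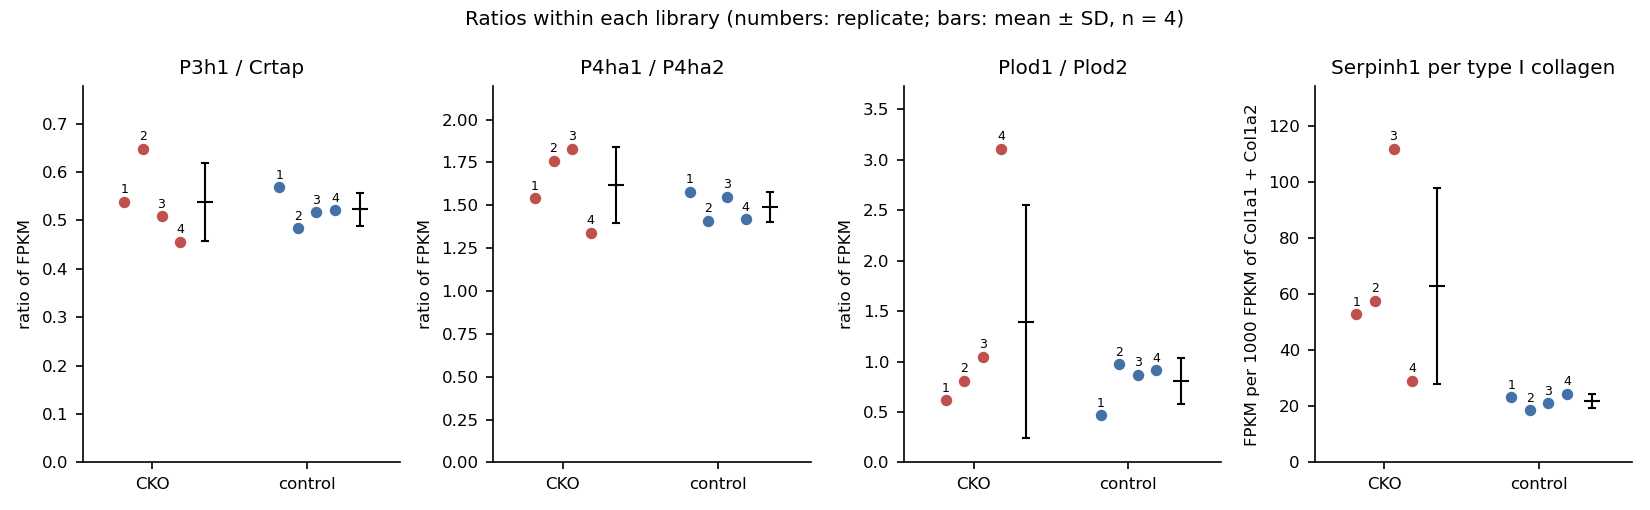
Ratios of FPKM within each of the 4 CKO libraries (red, left) and 4 control libraries (blue, right) on linear axes from 0, with replicate numbers and the mean ± SD. P3h1 over Crtap stays between 0.456 and 0.648 and P4ha1 over P4ha2 between 1.34 and 1.83, Plod1 over Plod2 reaches 3.11 in CKO replicate 4, and Serpinh1 per 1000 FPKM of type I collagen is 29.2 to 112 in CKO and 18.6 to 24.5 in control.

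Promoter sequences are shown for the 2 pairs with the smallest SDs of the log2 ratio. Each is 300 bases from RefSeq (GRCm38.p6), 250 before to 50 after a gene start, written in the direction of transcription, and capitals mark the letters of ACGTG and GCGTG, cores of hypoxia response elements, on either strand.
P3h1 (chr4:119232665-119232964, plus strand): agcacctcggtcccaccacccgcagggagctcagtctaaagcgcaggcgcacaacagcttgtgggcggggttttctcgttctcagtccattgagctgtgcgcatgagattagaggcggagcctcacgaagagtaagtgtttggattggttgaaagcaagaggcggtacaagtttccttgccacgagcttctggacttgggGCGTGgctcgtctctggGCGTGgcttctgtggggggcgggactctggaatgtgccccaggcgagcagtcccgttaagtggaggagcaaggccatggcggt
Crtap (chr9:114390663-114390962, minus strand): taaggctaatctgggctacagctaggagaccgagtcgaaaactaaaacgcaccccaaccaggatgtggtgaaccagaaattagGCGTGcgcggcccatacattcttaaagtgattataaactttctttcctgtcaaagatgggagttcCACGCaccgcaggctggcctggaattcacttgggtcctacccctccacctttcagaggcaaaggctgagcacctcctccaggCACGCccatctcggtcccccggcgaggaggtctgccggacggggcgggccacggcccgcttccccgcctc
P4ha1 (chr10:59323046-59323345, plus strand): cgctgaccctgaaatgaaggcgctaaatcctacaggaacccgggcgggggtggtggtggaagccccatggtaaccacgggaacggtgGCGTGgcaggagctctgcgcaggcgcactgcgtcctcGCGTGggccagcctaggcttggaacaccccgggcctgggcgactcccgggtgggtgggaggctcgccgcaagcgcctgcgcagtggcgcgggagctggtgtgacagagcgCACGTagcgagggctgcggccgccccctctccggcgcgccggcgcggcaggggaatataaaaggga
P4ha2 (chr11:54100674-54100973, plus strand): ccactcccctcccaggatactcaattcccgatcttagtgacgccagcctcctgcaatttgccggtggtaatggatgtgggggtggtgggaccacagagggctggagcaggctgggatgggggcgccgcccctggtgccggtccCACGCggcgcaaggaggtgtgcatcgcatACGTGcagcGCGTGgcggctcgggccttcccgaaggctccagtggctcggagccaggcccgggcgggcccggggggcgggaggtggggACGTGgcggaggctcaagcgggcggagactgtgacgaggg
RefSeq promoters matched 8 of the 10 genes by symbol, in 9 sequences since P3h1 has a second start. ACGTG was found in 5 of these 9 promoters and in 19.6% of all 32851 promoters of that length. For P3h1 it was in the promoter of the other start, which is not shown, and not in the one printed. GCGTG was found in 6 of the 9 and in 32.4% of all. The heat shock element core GAANNTTC was found in 1 of the 9, that of Plod1, and in 7.86% of all promoters. The ER stress response element was found in 0 of the 9 and in 0.119% of all. Matches on both strands were counted and may overlap, and they describe letters in these windows only.

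Type I collagen, the main substrate in bone, had log2 fold changes farther below 0 than any of the 10 genes with all libraries as deposited. Col1a1, the alpha 1 chain of type I collagen, had 5117, 4902, 1895 and 11607 FPKM in CKO replicates 1 to 4, against 10864, 14805, 17339 and 18919 FPKM in control replicates 1 to 4. Col1a2, the alpha 2 chain, had 5954, 5457, 2256 and 6970 FPKM in CKO replicates 1 to 4, against 11077, 10835, 13332 and 13822 FPKM in control replicates 1 to 4. CKO replicate 4 overlapped the controls for Col1a1, and no CKO library did for Col1a2. Neither gene passed, with limma log2 fold changes of -1.64 (SE 0.55, adjusted p = 0.102) and -1.36 (SE 0.45, adjusted p = 0.0963).

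Set against type I collagen in the same library, all 10 genes had a log2 difference above 0, as had 99.9% of all genes tested. A scaling by 1 factor per library does not move a ratio of FPKM. It can move this log2 difference for low genes, since 1 is added to FPKM. Serpinh1 had 52.9, 57.7, 112 and 29.2 FPKM per 1000 FPKM of Col1a1 plus Col1a2 in CKO replicates 1 to 4, against 23.4, 18.6, 21.2 and 24.5 in control replicates 1 to 4. Every CKO library was above every control library, and the same held for 8 of the 10 genes, all but Plod2 and P3h2, where 47.1% of all genes tested showed no overlap on the log2 scale. Crtap had 6.34 to 10 FPKM per 1000 in CKO and 2.86 to 4.23 in control, and P3h1 2.93 to 5.11 in CKO and 1.62 to 2.21 in control. By limma on log2(FPKM + 1) minus the mean of both type I collagen genes, Serpinh1 (log2 difference 1.37, SE 0.60, adjusted p = 0.0426), Plod3 (1.33, SE 0.54, adjusted p = 0.0312), P4ha1 (1.27, SE 0.53, adjusted p = 0.0352) and P4ha2 (1.17, SE 0.53, adjusted p = 0.0455) passed. That is 4 of 10, against 73.0% of all genes tested for this divisor, and the median of the 10 was 1.01 against 1.52 over all genes. Without the divisor these 4 genes had log2 fold changes of -0.33 to -0.13. The other 6 had log2 differences of 0.50 (Plod2) to 1.02 (Plod1). All these tests subtract the same divisor, so its error is shared by every gene. The fit pools variances as if the genes were independent, so these p-values may be too small. The counts that passed, here and in the fits that follow, may then be too high. The number that passed was 9 of 10 without CKO replicate 4, where 98.1% of all genes passed, and 6 of 10 without CKO replicate 3, where 53.3% did. Without control replicate 1 it was 1 of 10, against 63.1% of all genes. Without CKO replicate 1 or 2 or control replicate 2, 3 or 4 it was 0 of 10, against 37.8% to 58.6% of all genes. With replicate number as a block it was 1 of 10, against 70.5%, and with Col1a1 alone as the divisor 1 of 10, against 67.2%.

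**Figure D3:**
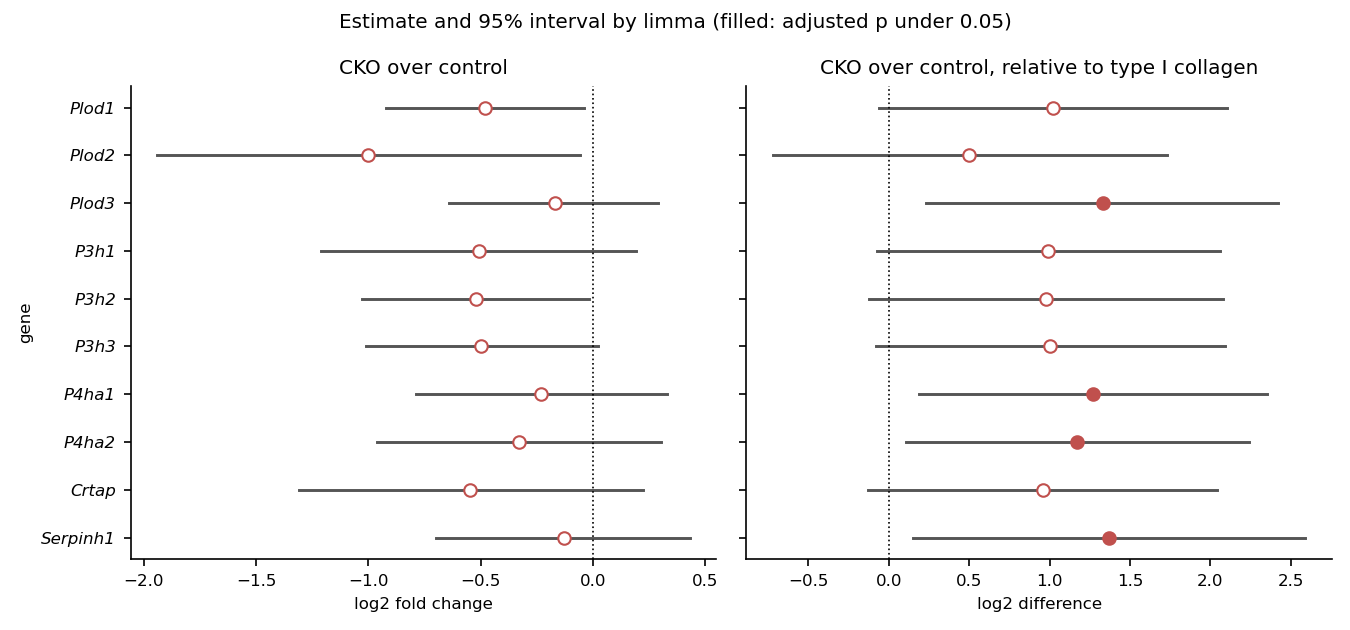
Estimates (points) and 95% intervals (lines) by limma for the 10 genes, as CKO over control on the log2(FPKM + 1) scale (left) and relative to the mean of Col1a1 and Col1a2 in the same library (right). No point is filled on the left, where the estimates run between -1.0 and -0.13, and 4 are filled on the right (adjusted p under 0.05). The tests on the right share 1 divisor, so their p-values may be too small.

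Partners of the 10 genes in the ER did not pass either. Of 12 listed partners 11 were tested and 0 passed, with a median log2 fold change of -0.07. The most abundant were Sparc, a collagen-binding matrix protein (4682 ± 1821 FPKM in CKO and 6911 ± 1215 FPKM in control, SD, n = 4 each, limma adjusted p = 0.362), and Ppib, cyclophilin B of the CRTAP complex. Ppib had 261, 271, 401 and 866 FPKM in CKO replicates 1 to 4, against 224, 206, 236 and 283 FPKM in control replicates 1 to 4. CKO replicates 3 and 4 stood above all controls (limma log2 fold change 0.75, SE 0.37, adjusted p = 0.233). Others named here were chosen after their values were seen. P4hb, the protein disulfide isomerase subunit of prolyl 4-hydroxylase, averaged 233 ± 27.5 FPKM in CKO and 236 ± 34.4 FPKM in control (SD, n = 4 each, limma adjusted p = 0.974). Creb3l1, an ER-bound transcription factor of type I collagen genes in osteoblasts, had 36.3, 31.2, 15.3 and 72.8 FPKM in CKO replicates 1 to 4, against 42.6, 80.7, 101 and 126 FPKM in control replicates 1 to 4. CKO replicate 4 alone lay within the control range (limma log2 fold change -1.25, SE 0.45, adjusted p = 0.122).

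Of 17 collagen chains 1 fell, 0 rose and 16 did not pass, with a median log2 fold change of -0.98. It was Col4a1 of basement membranes, at 48.9 to 83.6 FPKM in CKO and 103 to 162 FPKM in control (limma log2 fold change -1.06, adjusted p = 0.0453). Of 10 tested crosslinking and propeptide-removing genes 3 fell, the lysyl oxidase relatives Loxl2 and Loxl4 and the procollagen protease Adamts2, with a median over the list of -0.65. Loxl2, whose substrates include the hydroxylysines that lysyl hydroxylases make, had 9.16 to 15.5 FPKM in CKO and 22.1 to 35.1 FPKM in control (limma log2 fold change -1.20, adjusted p = 0.0388). Loxl4 and Adamts2 had log2 fold changes of -1.01 and -1.07 (adjusted p = 0.0408 and 0.0453). Each of these 4 calls was absent from the fits without CKO replicate 1, 2 or 3 or control replicate 2, 3 or 4, which called 0 genes in all.

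Other ER and stress genes gave few calls. Of 12 collagen export genes 0 passed (median log2 fold change -0.22), and Sec31a and Sar1a had log2 fold changes of -0.43 and 0.25. Of 18 general ER chaperones and unfolded protein response genes 0 passed (median 0.20), and Pdia3, a disulfide isomerase of glycoproteins, averaged 148 ± 16.1 FPKM in CKO and 117 ± 4.28 FPKM in control (SD, n = 4 each, limma adjusted p = 0.286). Calr, a lectin chaperone, averaged 208 ± 31.7 FPKM in CKO and 179 ± 14.5 FPKM in control (SD, n = 4 each). Of 8 tested cytosolic heat shock genes 1 rose, Hspe1, a mitochondrial co-chaperonin (log2 fold change 1.46, limma adjusted p = 0.0453), which also lost its call in those 6 fits, and the median was 0.47. Of 15 tested hypoxia response genes 0 passed (median -0.08), with Ldha at 0.57 and Aldoa at 0.17. Of 13 tested other 2-oxoglutarate dioxygenases, the enzyme class of the hydroxylases, 0 passed (median -0.33), with Egln2 at 0.38 and Asph at 0.13.

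Marker lists of the cells in the shaft had unequal values beside those of the 10 genes. The 10 osteoblast markers, among them Col1a1 of the collagen list, had a median log2 fold change of -0.85. Of 9 neutrophil markers 3 rose (Camp, S100a9 and S100a8, at log2 fold changes of 2.55 to 2.73) and of 8 erythroid markers 3 rose (Hba-a2, Hba-a1 and Alas2, at 1.72 to 2.26), with list medians of 1.41 and 1.52. Hba-a1 and Hba-a2 are almost the same in sequence, so how reads were divided between them is uncertain. These 6 calls too were absent from the 6 fits that called 0 genes. Among 5 tested osteocyte, 5 tested chondrocyte, 7 B lineage, 7 macrophage, 7 osteoclast, 8 skeletal muscle, 7 endothelial and 7 tendon and fibroblast markers, 0 passed. Their list medians were -0.71, -0.53, 1.08, 0.14, -0.42, 1.63, -0.54 and -0.16, in that order. The summed osteocyte markers were at 212 to 525 FPKM in CKO and 274 to 854 FPKM in control, those of chondrocytes at 17.0 to 89.9 FPKM in CKO and 52.1 to 81.2 FPKM in control, and those of tendon and fibroblasts at 115 to 177 FPKM in CKO and 144 to 261 FPKM in control. Those of skeletal muscle were at 109 to 7308 FPKM in CKO and 42.6 to 2432 FPKM in control, and those of the B lineage at 174 to 435 FPKM in CKO and 60.8 to 334 FPKM in control. CKO replicate 3, the lowest library for 9 of the 10 genes, had the highest neutrophil sum of the 8 libraries, 27482 FPKM, and the lowest osteoblast sum, 8962 FPKM. That osteoblast sum includes Col1a1, at 1895 FPKM in CKO replicate 3. In CKO replicate 2 the osteoblast sum was 10443 FPKM, with Col1a1 at 4902 FPKM. The erythroid sum of CKO replicate 3, 26402 FPKM, lay within the range of the other CKO libraries, and its B lineage sum, 174 FPKM, was the lowest in CKO. The part of these cell types in the values of the 10 genes was not tested.

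Covariates bore on the direction of the difference. With the mean of the neutrophil, B lineage and erythroid markers as a covariate, 6 of the 10 genes had a log2 fold change above 0. The median of the 10 was then 0.06, against -0.06 over all genes. The marker mean was 7.77 to 8.02 log2 units in CKO and 5.33 to 7.18 in control, with no overlap, so it and genotype cannot be told apart here. With Y-linked expression as a covariate, 8 of 10 were below 0 with a median of -0.21, against -0.06 over all genes. Plod2 was at -1.77 in that fit (limma adjusted p = 0.219). Within the libraries lacking Y-linked expression (3 CKO against 1 control) 9 of 10 genes were below 0 with a median of -0.40, and within those with it (1 CKO against 3 control) 7 of 10 with a median of -0.20. These splits were made for the 10 genes and type I collagen only, so no share over all genes stands beside them. In the libraries with Y-linked expression Plod2 was at -2.0, against -0.54 for Col1a1 and -0.85 for Col1a2. The CKO side there is CKO replicate 4 alone, the library with 155 genes at 0 and an array weight of 0.0896. In the libraries lacking Y-linked expression Plod2 was at -1.18, against -1.58 for Col1a1 and -1.40 for Col1a2. Its control side is control replicate 1 alone, the library in which Plod2 was highest, at 78.8 FPKM. With CKO replicate 4 left out and no covariate, Plod2 was at -0.60. Without CKO replicate 3 the median of the 10 was -0.27, against 0.02 over all genes. In that fit 0 of 10 were at an unadjusted p under 0.05 by limma, against 2616 of the 12644 genes tested.

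**Figure D4:**
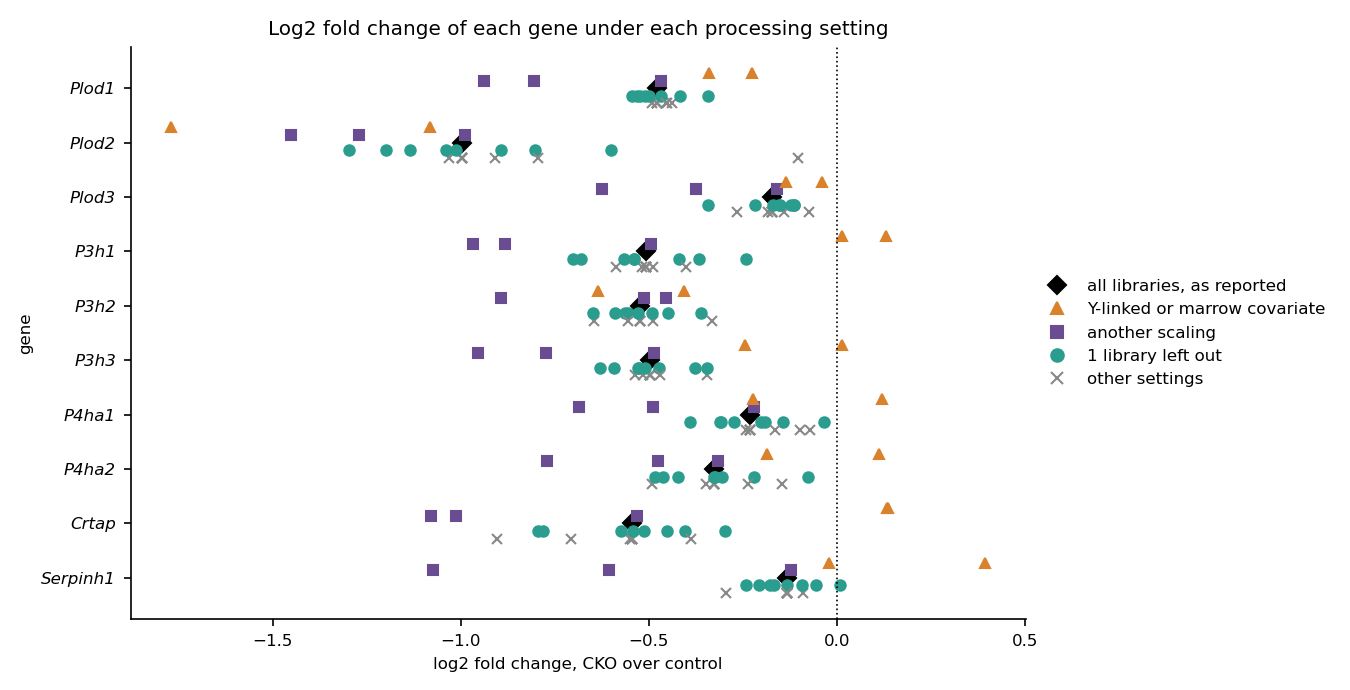
Log2 fold change of each gene (horizontal axis, CKO over control) with all libraries as reported (black diamonds) and under each other setting, by kind of setting. Points right of 0 belong to fits with a covariate, and to Serpinh1 in the fit without control replicate 4, at 0.01.

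The genes whose pattern over the 8 libraries was most like the mean of the 10, collagen genes left aside, were Snai1 (Pearson r = 0.987), Rhpn2 (0.986), Nab2 (0.980), Chn1 (0.977) and Igfbp7 (0.975). They were picked for a high r, so no p is given, and 1.08% of the genes compared had an r of at least 0.9. The libraries share scaling and cell makeup, which enter every such r. Snai1, a zinc finger transcription factor, had 9.67, 8.81, 3.98 and 11 FPKM in CKO replicates 1 to 4, against 11.2, 12.3, 15.2 and 17.2 FPKM in control replicates 1 to 4. As with 9 of the 10 genes, CKO replicate 3 was its lowest library, and Snai1 did not pass the test (limma log2 fold change -0.73, adjusted p = 0.148).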

How the data were processed

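RNA from femoral cortical shafts was extracted with TRIzol and made into libraries with the NEBNext Ultra RNA kit, per the labels' protocols. The submitters' processing notes list, without role or order, DESeq2 1.20.0, featureCounts 1.5.0-p3, HISAT2 2.0.5, CASAVA 1.8 and fastp, with the build GRCm38. The table holds FPKM per library, computed by the authors and named so in the file headers. It also holds a p-value and a log2 fold change per gene, which are the authors' deposited values. FPKM gives no depth and low values showed no clear steps of whole reads, so depth is unknown and no count test or counting interval was used.

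A gene was kept if 4 or more of the 8 libraries reached 1 FPKM, which 12748 did. Genotype alone was modelled on log2(FPKM + 1), a scale that understates changes of low genes, by limma 3.58.1 under R 4.3.3, using an intensity trend in eBayes. Single genes were also compared by an exact permutation test (scipy 1.17.1). The fit was tested on simulated data. Coordinates and transcript lengths came from GENCODE M21, in which 13477 gene IDs were found. The members and lists were chosen with earlier results of these data known. Named genes are the 10 members, Slc26a2, Col1a1 and Col1a2, up to 3 genes of each list with the smallest adjusted p past 0.05 or else the 2 with the highest mean, and the 5 genes most like the members. The result of 1 gene that this rule names is not reported here. Other settings were 3 other scalings, no filter, a filter at 5 FPKM, a pseudocount of 0.1, array weights, robust eBayes, removal of the trend with transcript length, covariates for Y-linked and marrow-lineage markers, replicate number as a block, each library left out in turn, and the authors' p-values adjusted.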

Additional observations from a re-analysis of the deposited data

Results flagged for a closer look

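Of 34 groups of 4 libraries checked for a value far from the rest, 2 stood out, where chance alone picks about 1 in 20 such groups. Plod3 reached 26.6 FPKM in CKO replicate 4, and CKO replicates 1 to 3 lay at 16.1 to 16.5 FPKM. Plod1 made up 26.9% of the lysyl hydroxylase FPKM in control replicate 1, against 38.4% to 39.0% in the other controls. That is the library in which Plod2 was highest, at 78.8 FPKM.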

How the results depend on the processing

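Of the 10 genes, 0 passed in CKO against control as reported, against 4.53% of all genes. With quantile normalization 1 passed (Plod1, limma log2 fold change -0.81, adjusted p just under 0.05), against 2.81% of all genes. Array weights gave 5 (Plod1, Plod3, P3h1, P3h3 and Crtap, limma adjusted p = 0.00437 to 0.0429), near the 47.1% of all genes called there. The highest weights were 5.84 for CKO replicate 1 and 5.02 for control replicate 3, and the lowest was 0.0896 for CKO replicate 4. In the other settings, each library left out included (0 to 0), 0 passed, against 0% to 14.9% of all genes. The log2 fold changes turned above 0 with the marrow covariate for P3h1 (0.13), P3h3 (0.01), P4ha1 (0.12), P4ha2 (0.11), Crtap (0.13) and Serpinh1 (0.39). They did so with the Y-linked covariate for P3h1 (0.01) and Crtap (0.13), and without control replicate 4 for Serpinh1 (0.01, with -0.24 to 0.01 over the libraries left out in turn). The cause was not tested. Equal FPKM totals moved the median of all genes to -0.37 and that of the 10 to -0.92, which is -0.55 relative to all genes, against -0.50 as reported. Quantile normalization, which changes ratios within a library, moved the median of the 10 to -0.79, or -0.76 relative to all genes, with single genes at -1.27 (Plod2) to -0.38 (Plod3), Crtap at -1.08 and Serpinh1 at -1.07. Over all genes, 578 were called as reported. The count was 0 with median-of-ratios scaling, equal totals, the length trend removed, the Y-linked covariate or the marrow covariate, 358 with quantile normalization, 381 with no filter, 6005 with array weights, 274 with the replicate block and 2030 with the authors' p-values adjusted. Leaving out each library gave 0 to 1879. In the fits that called 0 genes, 758 to 3972 were at an unadjusted p under 0.05 by limma. Relative to type I collagen 4 of the 10 passed as reported, 1 with Col1a1 alone, 1 with the replicate block, and 0 to 9 with a library left out. Over all genes these were 9307 as reported, 8570, 8982, and 4767 to 12387. Within each such fit the tests share 1 divisor, so their p-values may be too small. Same-numbered libraries showed no pairing common to all 4 numbers (correlations of -0.034, 0.229, -0.255 and 0.426), so the numbers were not taken as pairs. FPKM without counts gives no limit for low genes such as P3h2, which the filter at 5 FPKM left out.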
